A study of Rattus norvegicus with 256 samples.

Results

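The testes were 1 of 31 organs profiled in the series, and 4 of its 256 arrays carried RNA from this organ, numbered in their labels as males 1 to 4. The arrays were picked by the tissue named in their labels, so no measured value took part in the choice, and they were compared with the other 252 arrays, which cover 30 organs. All rats, control organs included, were of Han Wistar descent (strain AlpkHsdBrlHan:WIST), the tissue was described as normal, and no treatment or altered allele was named. Their age was not given in the sources used here. The organs compared most closely with the testes were the epididymis with 3 arrays, the ovary with 5 arrays and the brain with 10 arrays. The organs came from 5 male and 5 female rats, so arrays of different organs can share an animal.

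The testis makes sperm in seminiferous tubules, where stem cells called spermatogonia divide, spermatocytes pass through meiosis, and haploid spermatids then lose most of their cytoplasm, pack their DNA with protamines and build an acrosome and a tail. Sertoli cells nurse these germ cells inside the tubule, and Leydig cells between the tubules make testosterone. The X chromosome is silenced during male meiosis, and several autosomal genes that arose as copies of X-linked genes are known to be used in its place. The arrays measured RNA of the whole organ, so a greater number of cells of a type cannot be told apart from more RNA per cell.

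Signal was given on a log2 scale, so a difference of 1 is 2-fold. A probeset (a group of probes against 1 transcript) was called expressed in an organ when its mean exceeded 6.65 on this scale, the study's background level, which was applied here to the mean of an organ over both sexes and not to each sex. Values near 2 to 3 are the floor of the scale, so a difference measured against them is a low estimate. Among the 4 testes arrays the median signal lay between 4.00 and 4.04, within the 3.86 to 4.45 of all arrays, and each testes array correlated with the other 3 at a mean r of 0.981 to 0.983 across probesets. The median SD of an expressed probeset over the 4 arrays was 0.241. An epididymis array and a uterus array stood apart from the others of their organs. Epididymis array 5, by the number in its label, lacked genes of the epididymal head that the other 2 carried at high level: Cst11, a cystatin, read 12.76 and 12.82 on arrays 2 and 3 and 3.55 on array 5, and Teddm1a read 14.29, 14.19 and 5.61. Female uterus array 1 carried sperm gene RNA, as described further on. Values without either array are given in the paragraphs on the epididymis and the uterus. In 4 arrays of the series the sex-linked genes were at odds with the sex in the label, and without them the count of probesets above every organ, given next as 1601, was 1602.

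The testes expressed 8862 of 31042 probesets, which is inside the range of the other organs (7879 in pancreas to 10147 in uterus), but a larger share of them was expressed nowhere else. In total 823 probesets (2.65% of all tested) were expressed in the testes alone, against 617 for the brain, which came second, 161 for the liver and 145 for the thymus. Against the mean of the other 30 organ means, 3901 probesets (12.6%) were higher in the testes and 4213 (13.6%) were lower, by more than 2-fold at an adjusted p below 0.05 in limma. A higher probeset also had to be expressed in the testes, and a lower one to exceed the expression threshold as the mean of the other organs. A stricter contrast asked whether the testes exceeded each of the other 30 organs, and 1601 probesets (5.16%), from 1270 named genes, did. For 1514 of these, no array of any other organ reached the lowest testes array. This was counted only within the 1601, which had been called for a high testes mean, so it is no separate support. The lead over the next organ was more than 4-fold for 1025, more than 16-fold for 498, more than 64-fold for 260 and more than 256-fold for 95. In the other direction 521 probesets (1.68%), from 399 genes, were lower in the testes than in every other organ. The median difference from the other organs over all probesets was -0.10.

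**Figure D1:**
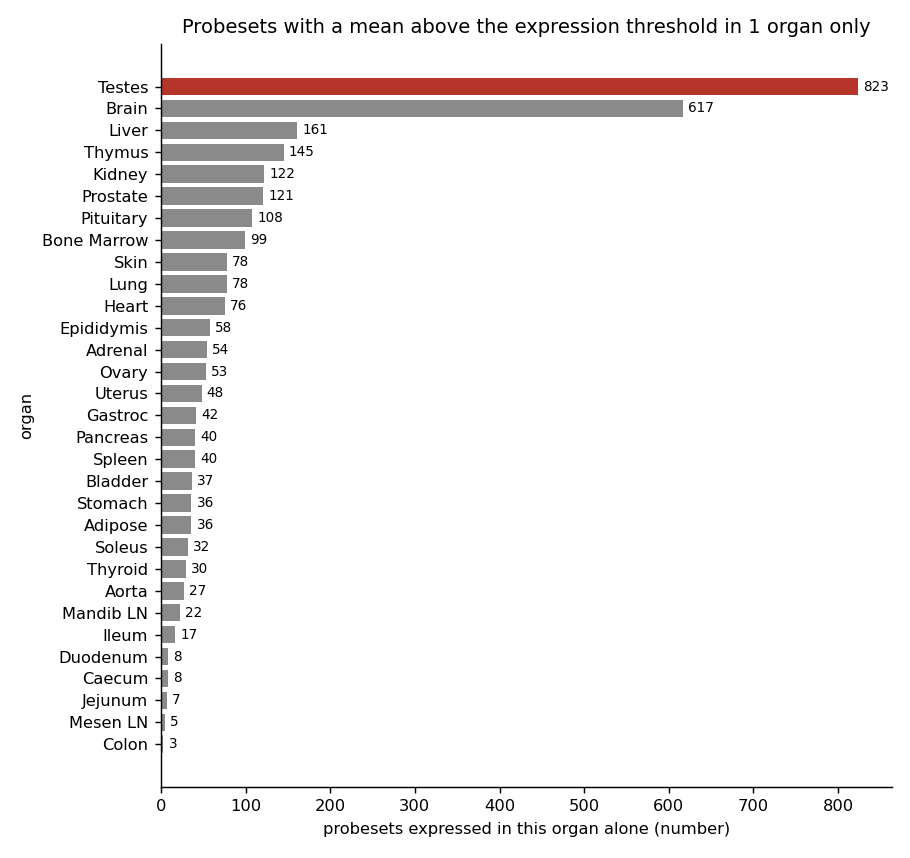
Number of probesets expressed in 1 organ and in no other (horizontal axis), with 1 bar for each of the 31 organs (vertical axis), where expressed means an organ mean above 6.65 on the log2 scale. The testes have the longest bar at 823, followed by the brain at 617 and the liver at 161.

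Across probesets the organ means nearest to the testes were those of epididymis (r = 0.716), ovary (r = 0.716) and adrenal (r = 0.707), and the brain stood at r = 0.619. These are descriptions over 31042 probesets that share probe effects. Against the epididymis alone, 3680 probesets (11.9%) were higher and 5312 (17.1%) lower in the testes. Against the ovary the counts were 3833 (12.3%) and 4897 (15.8%), and against the brain 4254 (13.7%) and 5181 (16.7%).

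The labels were checked with Tnp1, transition protein 1, which replaces histones in the elongating spermatid, and Odf1, a protein of the outer dense fibres of the sperm tail. Tnp1 read 15.22, 15.23, 14.85 and 14.90 on testes arrays 1 to 4, and its mean over the other organs was 2.89, a difference of 12.16 ± 0.27 (SE, limma adjusted p = 5.47e-114). Odf1 read 14.95, 14.95, 14.58 and 14.97, with array 3 below the rest, and exceeded the mean of the other organs by 11.55 ± 0.29 (adjusted p = 1.19e-103). Every testes array was above every array of every other organ for both genes. For both, the epididymis, which stores sperm, came next, with means of 6.01 for Tnp1 and 11.71 for Odf1.

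The 15 genes with the largest lead over the next organ included several known from spermatids. Tcp11, a protein of the sperm tail, read 13.58, 12.96, 13.13 and 13.50 on the 4 testes arrays and 3.33 on average in the next organ, the epididymis, which is a lead of 9.96 (adjusted p = 1.72e-123). The SD of Tcp11 was 1.44 over the 3 epididymis arrays and 0.30 over the testes arrays. Its p-value, like the others from limma here, came from a spread pooled over all organs. The next 14 genes led by between 9.64 and 9.96. The order rested partly on epididymis array 5, without which the 15 led by 8.62 to 9.79 and 9 of them stayed among the 15 largest, with Tcp11 at 9.44, Capza3 at 9.16 and Hils1 at 8.62. Among them were Capza3, a sperm form of an actin capping protein, Hils1, a linker histone of spermatids, the histone variant gene H2bl1, Tssk2, a kinase of spermatids, Gtsf1l, a relative of a piRNA pathway gene, Kctd16, an auxiliary subunit of GABA-B receptors in neurons, and Misfal, Samd13, Cep295nl, Marchf10, Smim23, Arhgap20l1, C3h20orf144 and Ccdc179. All 15 were expressed in the testes alone, which follows from leads this large and is no separate support. Probesets with no single gene symbol made up 11.8% of the 1601 probesets above every organ and 32.9% of all probesets.

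Promoter sequence was available from RefSeq for most named genes. Of those looked at, 5 are shown as examples, 2 of meiosis, 2 of spermatid chromatin and 1 energy enzyme. Capitals mark matches on either strand to CCGTTG, the core bound by MYB family proteins such as MYBL1, or to TGACGTCA and its part TGACG, the core bound by CREM and its relatives. Each line holds the 150 bases just before the gene start (build GRCr8; Tnp1 chr9:82044279-82044428, minus strand; Prm1 chr10:5378590-5378739, plus strand; Sycp1 chr2:193145181-193145330, minus strand; Sycp3 chr7:24761326-24761475, plus strand; Pdha2 chr2:232547099-232547248, minus strand).
Tnp1: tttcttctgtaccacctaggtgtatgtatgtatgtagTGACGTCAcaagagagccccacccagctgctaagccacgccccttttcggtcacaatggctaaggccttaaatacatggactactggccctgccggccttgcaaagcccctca
Prm1: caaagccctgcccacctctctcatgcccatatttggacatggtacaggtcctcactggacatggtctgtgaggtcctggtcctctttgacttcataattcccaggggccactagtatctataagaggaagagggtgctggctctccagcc
Sycp1: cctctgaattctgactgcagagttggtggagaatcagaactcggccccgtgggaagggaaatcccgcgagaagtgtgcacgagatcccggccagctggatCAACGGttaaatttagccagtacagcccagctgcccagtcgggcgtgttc
Sycp3: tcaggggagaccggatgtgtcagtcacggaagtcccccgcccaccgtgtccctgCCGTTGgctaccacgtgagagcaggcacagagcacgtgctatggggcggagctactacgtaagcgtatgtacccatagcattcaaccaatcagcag
Pdha2: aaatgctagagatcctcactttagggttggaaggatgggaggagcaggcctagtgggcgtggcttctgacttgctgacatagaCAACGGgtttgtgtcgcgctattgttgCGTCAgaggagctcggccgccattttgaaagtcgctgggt
In Tnp1 the full TGACGTCA began at -113 from the gene start, in Sycp1 and Sycp3 CCGTTG began at -50 and -96, and in Pdha2 CCGTTG and TGACG began at -67 and -40. No match lay in the Prm1 window, nor in those of Tnp2, Tdrd1, Stag3, Akap4 and Smcp, which were looked at but are not shown. The Ldhc window, also not shown, held TGACG at -31 and no CCGTTG. Over windows from 250 bases before to 50 after the gene start, CCGTTG was present in 12.5% of the 1283 promoters of genes above every other organ, in 6.44% of the 13192 promoters of genes on the array and in 5.2% of all 33469 promoters. TGACG was present in 31.6%, 28.1% and 21.2%, and TGACGTCA, each match of which also counts as a TGACG match, in 3.04%, 2.71% and 1.83%. TATAAA, the TATA box, was present in 5.38%, 8.47% and 14.2%. In the 223 promoters of genes with a lead over 64-fold the shares were 12.1% for CCGTTG, 22% for TGACG and 1.35% for TGACGTCA, and in the 16 of meiosis and piRNA genes higher in the testes they were 31.2%, 12.5% and 0%. CCGTTG was chosen for this count after expression values had been seen. These shares are descriptions of letters and carry no test.

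Genes of the germ line were grouped by stage. The lists used here and below were chosen with earlier results of these data known. Their counts are therefore descriptions and no separate support. In 8 lists (meiosis, piRNA pathway, sperm chromatin, transcription factors, acrosome, flagellum, energy enzymes, and kinases and phosphatases), 101 genes were measured, of which 87 were higher in the testes than the mean of the other organs and 76 were above every other organ, with a median difference of 6.90. With the list of RNA storage and translation added, the counts were 91 and 78 of 108, with a median of 6.86. Over the 14217 named genes, each represented by 1 probeset, 2633 (18.5%) were higher, 2839 (19.97%) lower and 1081 (7.6%) above every other organ, with a median of -0.29.

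**Figure D2:**
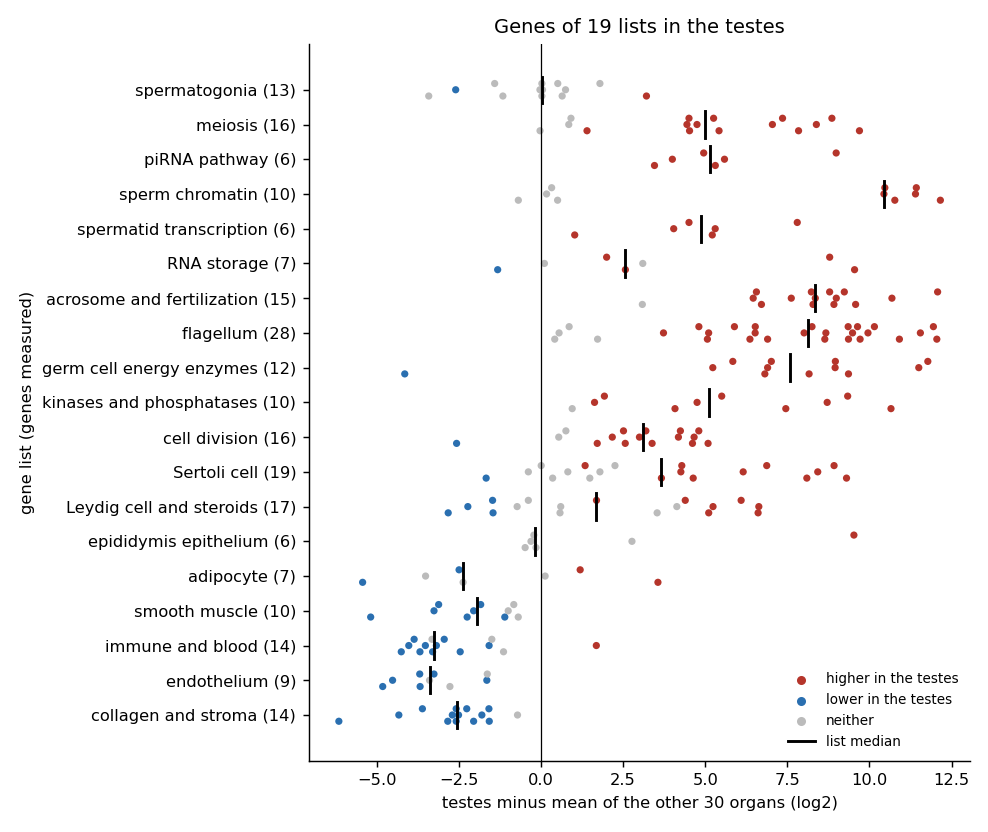
Difference between the testes and the mean of the other 30 organs on the log2 scale (horizontal axis) for the genes of the 19 lists (vertical axis), 1 point per gene, coloured by whether it was higher, lower or neither, with a bar at each list's median. Meiotic and spermatid lists lie mostly to the right of 0, with a median of 10.46 for sperm chromatin, and endothelial, immune and collagen genes mostly to the left, with a median of -3.40 for endothelium.

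Spermatogonial genes gave different counts by the probeset used. On the probeset that stood for each of the 13 genes measured, 1 was higher, 1 was lower and none was above every organ, with a median difference of 0.02. Over all 22 probesets of these genes, 4 were higher, 1 was lower and 1, of Gfra1, was above every organ. Uchl1, a ubiquitin hydrolase of spermatogonia and of neurons, was the higher gene, with 8.57 ± 0.39 (SD, n = 4) in the testes and 12.06 in the brain. Foxo1, a transcription factor of stem cells, was the lower gene, with a difference of -2.60 ± 0.37 (SE, limma adjusted p = 5.91e-11). Gfra1 and Ret are the receptor pair for the Sertoli cell factor GDNF. The Gfra1 probeset that stood for the gene read 3.19 in the testes and 6.93 in the epididymis, where arrays 2, 3 and 5 read 8.08, 8.52 and 4.19. A further one read 7.93, 7.93, 7.80 and 7.72 on the 4 testes arrays, and no other organ mean exceeded the expression threshold. It led the epididymis mean of 6.10 by 1.74 (limma adjusted p = 0.00105). That mean covered 3 arrays with an SD of 2.59. The highest array outside the testes read 7.70, next to the lowest testes array at 7.72. The lead without epididymis array 5 was not worked out for this probeset, so its call above every organ may rest on that array. Ret was below the expression threshold on its 3 probesets, at 3.83 to 3.88. Id4, an inhibitor of differentiation, had a testes mean of 9.40 against 12.53 in the thyroid and was not called on that probeset, but was higher on 2 of its further 3, by 2.58 and 1.61.

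Meiotic genes were high in the testes and near the floor in most other organs. Of 16 measured, 13 were higher, none was lower and 10 were above every other organ, with a median difference of 5.00. Sycp3, a protein of the axis of meiotic chromosomes, read 12.64, 12.77, 13.12 and 11.61 on testes arrays 1 to 4, against 3.66 in the pancreas, the next organ. Array 4 was the low one and array 3 the high one, and all were far above the other organ means, none of which exceeded that of the pancreas. The lead over the pancreas was 8.87 (limma adjusted p = 1.82e-107). Sycp1, which joins the paired axes, read 7.95, 8.67, 7.13 and 7.86, again above every other array, with a lead of 4.44. Sycp2, a further axis protein, led its next organ as well, with a testes mean of 10.54 against 3.29.

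The cohesins, rings that hold sister chromatids together, have meiotic subunits. Smc1b read 10.99, 11.08, 10.41 and 10.62 in the testes and no more than 2.66 as the mean of any other organ. Stag3 read 11.21, 10.94, 10.90 and 11.31, but reached 7.22 in the thyroid, so that its lead was 3.88 (adjusted p = 3.20e-30). Hspa2, a chaperone of spermatocytes, had a testes mean of 13.65 and 10.68 in the bladder. In 3 of the 13 higher genes, the testes were not the leading organ or did not lead by 2-fold. Spo11, which cuts DNA to start recombination, read 7.49, 7.6, 7.14 and 7.6 in the testes, whereas the thymus had 8.53 ± 0.30 (SD, n = 8). Rec114, a partner of the same step, had 7.96 in the testes and 8.58 in bone marrow. Mlh3, a mismatch repair protein of crossovers, had 7.46 against 7.13 in the heart. Ccna1, a cyclin of spermatocytes, did not pass on the probeset that stood for it, with 4.12 in the testes, whereas a further probeset of the gene read 10.36 and was above every organ.

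Genes of the piRNA pathway, which silences transposons in germ cells, were higher in the testes for 6 of 6 measured, and 4 were above every other organ. Tdrd1, a scaffold of the pathway, read 11.24, 11.30, 11.22 and 11.10, a spread of 0.08 (SD), against 3.23 in the heart. Mov10l1, the helicase that feeds the pathway, had 7.65 against 2.70 in the pancreas, with array 3 below the rest. Piwil2, a PIWI protein, had 8.63 ± 0.20 (SD, n = 4), and 6.42 in the heart. Asz1, a mitochondrial anchor of the pathway, had 7.65 in the testes and 7.77 in the epididymis, where arrays 2, 3 and 5 read 8.24, 7.89 and 7.16. Tdrkh, a further tudor protein, had 7.02 in the testes and 7.27 in the thymus.

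Transcription factors of spermatocytes and spermatids were higher for 6 of 6 measured, with a median difference of 4.86. Rfx2, a regulator of ciliary genes, had a testes mean of 11.36 ± 0.26 (SD, n = 4) and led the soleus muscle by 5.58. Tbpl1, a relative of the TATA-binding protein, had 12.78 and led the thymus by 3.00, and Taf7l, an X-linked TFIID subunit, led bone marrow by 4.76. Mybl1, the MYB protein of spermatocytes, had 9.64 and led the mandibular lymph node by 1.67 (adjusted p = 0.000825). Crem, whose testis form drives spermatid genes, had 9.78 in the testes and 11.43 in the adrenal on the probeset that stood for it, and passed against the mean by 1.02 ± 0.20. A further Crem probeset had 11.59 in the testes and a difference of 4.28. Rfx4 had 8.54 against 9.09 in the pituitary.

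Of 7 genes that store or translate spermatid RNA, 4 were higher, 1 was lower and 2 were above every organ. Papolb, a cytoplasmic poly(A) polymerase, had 11.63 against 2.43 in the epididymis, a lead of 9.21. Ybx2, which binds and stores spermatid mRNA, had 12.57 against 7.36 in bone marrow. Ybx3 had 12.76 in the testes but 13.25 in bone marrow. Dazap2 was the lower gene, by -1.32 ± 0.11.

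Proteins that pack sperm DNA gave the largest differences of all the lists, with a median of 10.46. Of 10 genes measured, 6 were higher and all of these were above every other organ. Prm1, protamine 1, read 15.35, 15.41, 15.35 and 15.14, with a lead of 4.23 over the epididymis (adjusted p = 4.49e-06), in which the 3 arrays ranged from 9.42 to 12.21. Prm2, protamine 2, read 13.51, 13.48, 13.04 and 13.35 and led by 8.97. Tnp2, transition protein 2, read 14.42, 14.26, 14.37 and 14.34 and led by 8.60. Prm3 and Hmgb4 completed the group, and the epididymis was the next organ for each of the 6. The histone variant genes H1f6, H2bc1 and H2ac1 read 2.81, 2.97 and 2.79 in the testes, at the floor of the scale. Cdyl, a chromatin reader, had 6.50 on the probeset that stood for it, whereas a further probeset read 11.04, 10.66, 10.77 and 11.02, was expressed in the testes alone and led the epididymis by 4.79.

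**Figure D3:**
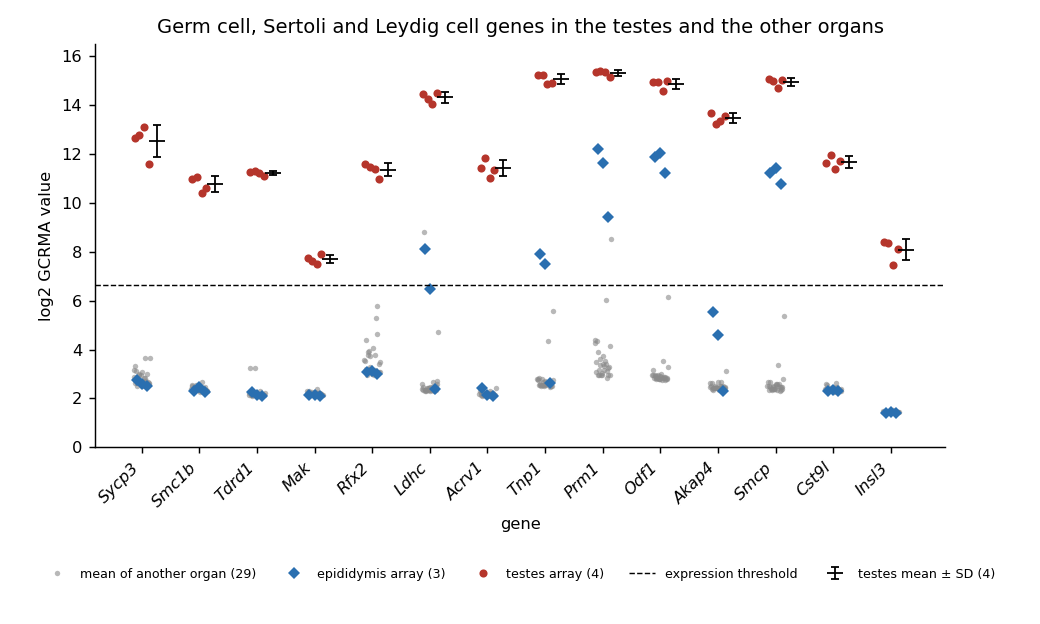
Log2 signal (vertical axis) of 14 genes of germ cells, Sertoli cells and Leydig cells (horizontal axis). Red points are the 4 testes arrays with their mean and SD beside them, blue diamonds are the 3 epididymis arrays, grey points are the means of the other 29 organs, and the dashed line is the expression threshold of 6.65. For Tnp1 the testes arrays lie between 14.85 and 15.23 and the epididymis arrays between 2.63 and 7.91, whereas for Odf1 the epididymis arrays reach 12.02.

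Acrosome and fertilisation genes were higher for 14 of 15 measured, and 13 were above every other organ, with a median difference of 8.35. Crisp2, a secretory protein of the acrosome and tail, read 14.70, 14.72, 14.72 and 14.74 on the 4 arrays, against 7.74 in the epididymis. Acrv1, an acrosomal vesicle protein, read 11.43, 11.85, 11.04 and 11.36 and led by 9.01. Acr, the protease acrosin, had 11.01 ± 0.08 (SD, n = 4) and Spam1, the sperm hyaluronidase, 11.35 ± 0.24, with the pancreas next for both, at 4.05 and 2.89. The prostate came next for Acrbp, which binds proacrosin, at 10.03 against 11.33, a lead of 1.30 (adjusted p = 0.00151), and for Zpbp, a zona pellucida binding protein with 12.14 in the testes. Tex101, a germ cell surface protein, was the exception, with 11.17 in the testes and 12.21 in the epididymis. Calr3, a testis calreticulin, had 6.38 and stayed below the expression threshold.

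Flagellar genes were higher for 24 of 28 measured, and all 24 were above every other organ, with a median difference of 8.13. Akap4, the main protein of the fibrous sheath and X-linked, read 13.68, 13.25, 13.34 and 13.56 and led the epididymis by 9.31. Smcp, a protein of the sperm mitochondrial capsule, read 15.06, 14.98, 14.70 and 15.03, and the epididymis was nearer, at 11.14. Oaz3, an antizyme of spermatids, read 14.79, 14.60, 14.17 and 14.78 and led by 4.41. The lung, whose airways are ciliated, came next for 7 of the 24, and the epididymis and the pancreas for 6 each. Of all 1601 probesets above every organ, 4.9% had the lung next, 8.2% the epididymis and 11.3% the pancreas. The lung mean exceeded the expression threshold for 4 of the 24. Those next to the lung included Tekt1, a tektin of the axoneme, which read 12.99, 13.17, 12.75 and 13.07 against 6.92 in the lung, and Dnah1, a dynein heavy chain, with 9.54 against 6.78. Odf2 and Spag16 did not pass on the probeset that stood for them, while a further probeset of each, with 14.39 and 10.29, was above every organ.

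Enzymes and carriers that supply energy to germ cells were higher for 11 of 12 measured and above every other organ for 9. Ldhc, the lactate dehydrogenase of sperm, read 14.45, 14.25, 14.04 and 14.50, against 8.82 in bone marrow, a lead of 5.49 (adjusted p = 8.06e-56). Pdha2, the testis form of the pyruvate dehydrogenase E1 alpha subunit, read 10.22, 10.82, 10.47 and 10.63, a lead of 7.90 over the pancreas. Its SE of 0.02 came from a spread pooled over organs where it sat at the floor, whereas the SD of the testes arrays was 0.26. Fabp9, a fatty acid binding protein of the sperm head, had 14.78 against 5.74 in the epididymis. Pgam2, a muscle phosphoglycerate mutase, had 11.22 in the testes, less than in the gastrocnemius muscle, the highest organ. Ckb, brain creatine kinase, was the lower member, with 4.74, 5.03, 4.15 and 4.28 in the testes and a difference of -4.15 ± 0.25. Among 10 kinases and phosphatases of the testis, 9 were higher and 8 above every organ, such as Camk4, a calmodulin kinase, with 11.47 against 7.69 in the thymus, and Pim1, a survival kinase, with 10.31 against 6.21 in bone marrow.

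General cell division genes were high in the testes, as they were in the thymus and bone marrow. Of 16 measured, 13 were higher, 1 was lower and none was above every other organ, with a median difference of 3.09. The thymus or the bone marrow was the highest other organ for all 16. Aurka, a spindle kinase, had 11.05 in the testes against 10.37 in bone marrow, and Mki67, the Ki-67 antigen, had 10.14 against 12.51. Mcm2, a subunit of the replication helicase, was the lower gene, with 4.66 in the testes and 11.00 in bone marrow.

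Among the somatic cells, Sertoli cell genes were higher for 11 of 19 measured, lower for 1 and above every organ for 5. Cst9l, a cystatin, read 11.64, 11.96, 11.39 and 11.73, against at most 2.63 in any other organ. Aard, of unknown function, had 12.04 ± 0.19 (SD, n = 4) and 4.93 in the ovary. Shbg, which carries androgen, read 9.45, 9.31, 9.24 and 9.69 and led the epididymis by 4.53. Tsx read 11.28, 11.88, 11.55 and 11.22 and Cst12 had 10.61, and both rested on the epididymis, as described below. Inha, the inhibin alpha subunit, had 8.01 in the testes and 12.60 in the ovary. Wt1, a gonadal transcription factor, had 8.19, and 9.01 in the uterus. Amh, the hormone of the immature Sertoli cell, read 2.59, 2.83, 2.37 and 3.50 in the testes, at the floor, and 8.92 in the ovary. Kitlg, the ligand of the KIT receptor, was the lower gene, at -1.67 ± 0.20.

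Leydig cell and steroid genes were higher for 7 of 17 and lower for 4, and only Insl3 was above every organ. Insl3, the hormone that guides testis descent, read 8.39, 8.35, 7.46 and 8.11, with array 3 the lowest, and no other organ mean exceeded 1.51. Star, which moves cholesterol into mitochondria, read 8.39, 8.40, 7.12 and 8.17, far below the 14.75 of the adrenal. Hsd3b1, 3 beta-hydroxysteroid dehydrogenase, had 9.86 in the testes and 14.71 in the ovary. Cyp17a1, the enzyme at the branch to androgens, read 11.23, 10.44, 9.94 and 9.40, and the stomach had 13.04 ± 0.94 (SD, n = 10). Hsd17b3, the last step to testosterone, read 2.84, 4.91, 2.15 and 2.07 and was not expressed in the testes, while the stomach had 11.40. The lower genes were Tspo, Por, Hsd17b12 and Akr1c14.

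Genes of supporting tissue were low in the testes. None of the 10 smooth muscle genes was higher and 7 were lower, with a median of -1.95. Of 9 endothelial genes none was expressed in the testes and 6 were lower, among them Kdr, the VEGF receptor, with 4.45 in the testes and a difference of -4.82 ± 0.21. Of 14 immune and blood genes, 10 were lower and 1, the haem enzyme Alas2, was higher. Ptprc, the CD45 antigen of leukocytes, read 3.87, 3.73, 4.45 and 3.18. Of 14 collagen and matrix genes, 13 were lower, and fibronectin, Fn1, had the largest difference at -6.16 ± 0.24. Adipocyte markers Adipoq and Plin1 were at 2.75 and 3.48, and of 7 measured 2 were lower, while the lipases Lipe and Pnpla2 were higher in the testes, by 3.56 ± 0.36 and 1.19 ± 0.24. These lists are also what the other organs are rich in, and the mean of 30 organs is the reference here.

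The epididymis was the next highest organ for 132 of the 1601 probesets above every organ, fewer than the thymus with 223 and the pancreas with 181. For 762 of the 1601 no other organ mean exceeded the expression threshold. The next organ of these was therefore read from values under the threshold. It expressed 454 of the 1601, against 393 for the ovary and 378 for the brain. Of all 31042 probesets, the epididymis expressed 9952, the ovary 9439 and the brain 9739. The list of meiotic genes higher in the testes had none of 13 expressed in the epididymis, the acrosome list 3 of 14 and the flagellar list 3 of 24. The epididymis arrays differed among themselves in sperm genes. Tnp1 read 7.91 and 7.48 on arrays 2 and 3 and 2.63 on array 5, and Crisp2 read 9.73, 8.33 and 5.17, while Odf1 was high on all 3 at 11.88, 12.02 and 11.24, and so was Smcp at 11.21, 11.43 and 10.78. The Sertoli cell gene Cst9l and the Leydig cell gene Insl3 were at the floor on all 3. Tsx, an X-linked gene of testis cells, ran the other way, with 9.08, 7.30 and 13.42. Whether sperm or RNA of another source gave these signals was not tested.

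Leaving out epididymis array 5 changed the results of single genes. Among the list members and named genes, 39 were above every organ and had the epididymis next with or without this array. Without it 37 of the 39 stayed above every organ, 18 had a lead smaller by more than 1.5-fold and only that of Tsx grew by as much, from 1.55 to 3.29. The lead of Tnp1 was 7.36 instead of 9.05, that of Prm1 3.39 instead of 4.23 and that of Tnp2 7.31 instead of 8.60. The lead of Crisp2 was 5.69 instead of 6.98, that of Akap4 8.39 instead of 9.31, that of Fabp9 7.45 instead of 9.04 and that of Akap3, a further fibrous sheath protein, 4.61 instead of 6.23. Cst8 and Cst12, cystatins that arrays 2 and 3 carried at 12.42 and 12.41 and at 11.70 and 12.27, were above every organ only with array 5 in the mean. Without it, their differences from the epididymis were -0.25 and -1.38. Of the 6 epididymal epithelium genes measured, Cst8 was also the only one higher in the testes, where Adam7, Cst11 and Teddm1a read 2.07, 2.67 and 2.68. The count above every organ was then 1593. Further probesets of list genes, such as that of Gfra1, were not looked at singly in this check.

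Uterus array 1 carried sperm gene RNA. Its values were 8.77 for Tnp1, 12.71 for Prm1, 10.73 for Odf1, 9.63 for Smcp and 9.85 for Oaz3, against ranges over the other 4 uterus arrays of 2.57 to 5.63, 3.78 to 8.86, 2.83 to 6.34, 2.58 to 5.02 and 2.22 to 5.34. Prm1 and Tnp1 were not at the floor on all of the other 4, since arrays 3, 4 and 5 read 8.37, 8.82 and 8.86 for Prm1 and 5.43, 5.52 and 5.63 for Tnp1, and array 2 read 3.78 and 2.57. On array 1 all 9 spermatid genes looked at exceeded the median of the uterus by more than 2 on the log2 scale. The Y-linked gene Eif2s3y read 2.46, Cst9l 2.69 and Insl3 1.41 on the same array, all at the floor of the scale. The meiotic gene Sycp3 read 5.84. Only 3 more of the 252 arrays outside the testes had at least 3 of the 9 genes that far above their own organ's median, which were Thyroid male 4 with 6, Lung male 5 with 5 and Pancreas male 5 with 3. The genes were chosen after their values had been seen, and the cause was not tested. Without uterus array 1, the same 1601 probesets were above every organ.

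Probesets below every other organ included genes that all other organs expressed strongly. Pdha1, the X-linked and general form of the pyruvate dehydrogenase E1 alpha subunit, read 2.29, 2.59, 3.20 and 3.88 in the testes, and the lowest other organ, bone marrow, had 8.15, a gap of -5.16 (limma adjusted p = 6.53e-60). A further probeset of the gene read 4.43, 4.96, 5.08 and 5.06 and was below every other organ as well. Cox7b, an X-linked subunit of cytochrome oxidase, read 8.27, 8.33, 7.90 and 8.32, against at least 11.85 in any other organ. Tspan12, a tetraspanin, read 3.59, 3.02, 3.77 and 3.35 against at least 7.75. Ppp2r5a, a regulatory subunit of phosphatase 2A, was 4.11 below the prostate, but its arrays fell into a high pair of 5.67 and 4.96 and a low pair of 2.91 and 3.00. The actin crosslinker Actn1, the transcription factor Klf3, Smim15 and the X-linked genes Igbp1, Wdr45 and Mid1ip1 completed the 10 largest, of which 5 were X-linked.

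X-linked genes were low in the testes as a group. Of 460 X-linked probesets expressed in at least 1 organ, 169 (36.7%) were lower in the testes and 43 (9.35%) higher, with a median difference of -1.37. Of 15243 autosomal probesets, 21.4% were lower and 22.3% higher, with a median of -0.45. Below every other organ were 47 X-linked probesets (10.2%) and 2.53% of the autosomal ones. With 1 probeset per gene, 38.5% of 371 X-linked genes and 23.0% of 11680 autosomal genes were lower. The other organs included female arrays. With male arrays only 37.1% of X-linked and 21.2% of autosomal probesets were lower. Over all probesets no single autosome exceeded 25.9%, and with 1 probeset per gene the highest was chromosome 18 at 30.1%. These shares are counts and carry no test of the chromosome.

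**Figure D4:**
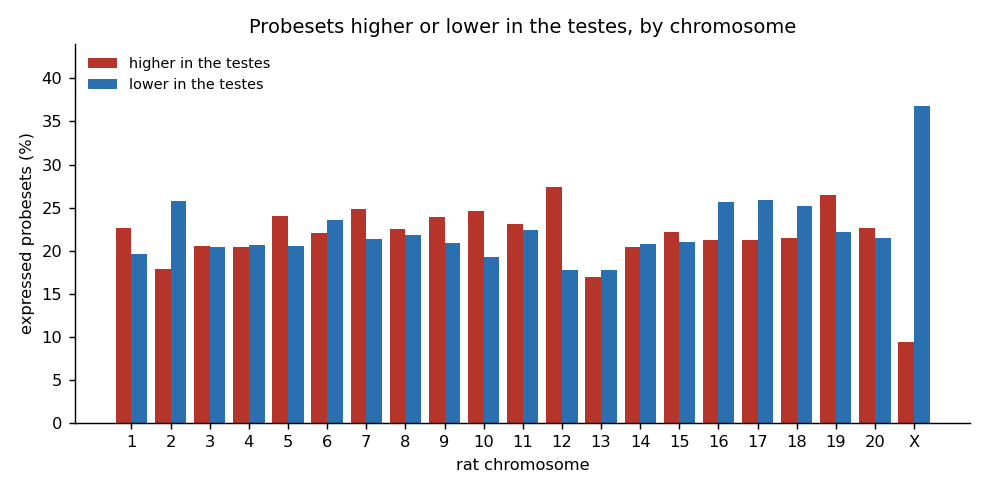
Share of probesets expressed in at least 1 organ (vertical axis, percent) that were higher (red) or lower (blue) in the testes than the mean of the other organs, by rat chromosome (horizontal axis). The X chromosome has 36.7% lower and 9.35% higher, while no autosome has more than 25.9% lower.

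Other X-linked genes were high in the testes, and 25 X-linked probesets were above every other organ. These were 5.43% of the X-linked probesets expressed in at least 1 organ, a smaller share than the 9.07% of autosomal ones. The 6 genes with the largest differences were Akap4, the histone variant genes H2al2l and H2ap, Tsx, 1700020N15Rikl and Asb9. H2ap read 11.57, 11.74, 12.63 and 11.80, and H2al2l ranged from 12.81 to 13.30, with the caveat that members of such families can share probes. Asb9, a component of ubiquitin ligases, had 10.63 in the testes and 8.10 in the kidney. On the low side, Atp6ap2, an accessory protein of the proton pump, read 3.10, 2.93, 3.67 and 3.50, and Pdzd11 and Wdr13 followed. Of the 3 Y-linked probesets expressed in any organ, Tspy1 was above every other organ. A probeset annotated to Uty was below every other organ at 4.68, but it read 10.33 in the ovary, of females that carry no Y chromosome.

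Pairs of related genes, listed as a germ cell form and a general form, were followed together. The names did not suit every pair. Tekt2, listed as general, was expressed outside the testes only in the lung, at 7.17. Y-linked Eif2s3y, listed as a germ form, was found by the study in all tissues of males, and the other organs included female arrays. Both of these pairs are in the counts. Both forms were measured in 17 of 35 listed pairs. The germ form was higher in the testes and above every other organ in 13, the general form was lower in 11 and higher in 3, and in 9 pairs both held. The median difference was 8.38 for the germ forms and -1.56 for the general forms. In these pairs all 6 X-linked general forms were lower, 5 of them below every other organ, with a median of -3.19. Of the 11 others 5 were lower and 1 below every organ, with a median of -0.82.

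Pdha2 and Pdha1, described above, gave the widest contrast. Stag2 and Smc1a, the general X-linked cohesins, read 6.71, 7.07, 7.07 and 7.28 and 5.63, 6.15, 5.69 and 6.16, opposite to Stag3 and Smc1b. Cetn1, a centrin of the sperm centriole, had 12.14 and was 9.45 above the other organs, while X-linked Cetn2 was 3.27 below them. Slc25a31, a sperm ADP/ATP carrier, was 6.90 above, and X-linked Slc25a5 was 2.08 below. An autosomal pair, the cytochrome oxidase subunits Cox6b2 and Cox6b1, behaved alike, with 8.96 ± 0.23 for the germ form and -3.27 ± 0.09 for the general form. Ldha, the general lactate dehydrogenase, differed by 0.32 ± 0.11 and was not called, next to Ldhc at 11.50. Tbp was higher together with Tbpl1, by 3.72 ± 0.13, and Tekt2 together with Tekt4. Pgk1, the X-linked phosphoglycerate kinase, read 9.19, 9.26, 8.96 and 9.18 and was below every organ, and its germ form is not named in the annotation used here. Gk and Utp14a, X-linked general forms whose germ forms were also not measured, went opposite ways. Gk was lower, at -4.17 ± 0.30 (SE), whereas Utp14a was above the mean of the other organs by 1.00 and was not called.

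**Figure D5:**
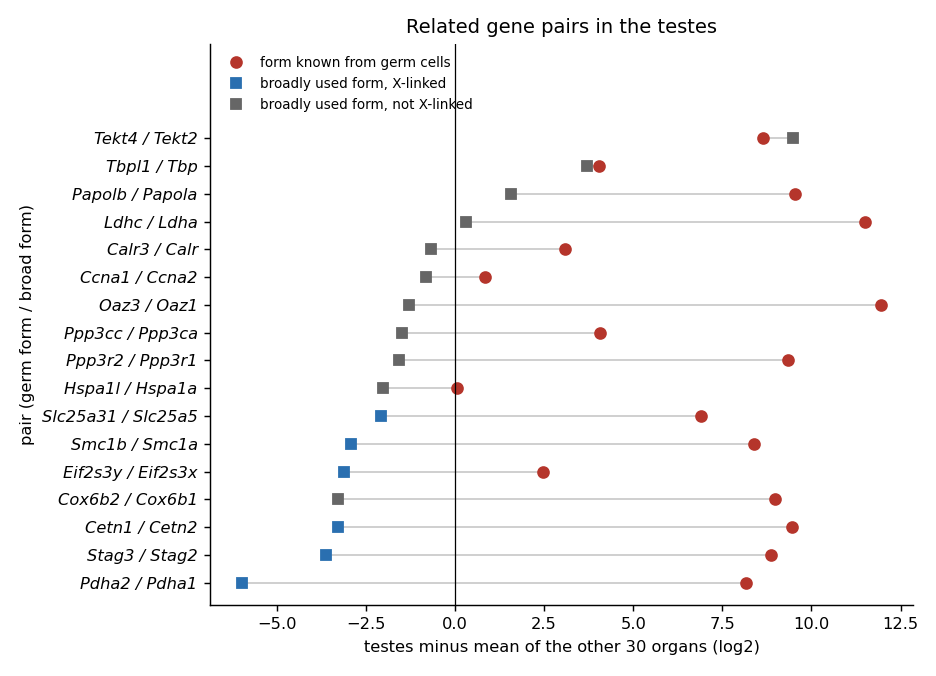
Difference between the testes and the mean of the other 30 organs on the log2 scale (horizontal axis) for 17 protein pairs (vertical axis). A circle marks the form listed as the germ cell form. A square marks the form listed as general, blue where it is X-linked. The germ forms have a median of 8.38, and all 6 X-linked general forms lie below 0, with a median of -3.19.

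The testes arrays agreed closely for germ cell genes and less for matrix genes. The median SD over the 4 arrays was 0.22 for the expressed meiotic genes, 0.20 for sperm chromatin and 0.53 for collagen and matrix genes. Col1a1, a collagen chain, read 9.93, 7.88, 10.38 and 10.71, and its list as a whole deviated by -0.81 on array 2 and by 0.57 on array 4 from its mean over the arrays. Leydig cell genes deviated by 0.22 on array 1 and -0.36 on array 3. Among all named genes expressed in the testes, Prss35, a serine protease of the gonads, had the largest SD, with 3.10 on array 1, 7.39 on array 4 and higher values, up to 9.80, on arrays 2 and 3. Zfp212 read 7.71, 8.07, 9.79 and 3.38, and the histocompatibility genes RT1-Db1 and RT1-CE12 read 8.14, 7.22, 8.95 and 4.90 and 7.93, 9.50, 6.61 and 10.24. Wtap and Sgcb completed the 6. Of these 6, only Prss35 passed against the other organs, at 3.57 ± 0.54 (limma adjusted p = 6.00e-10), and without array 3 its testes mean was under the expression threshold.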

How the data were processed

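RNA from 31 organs of 5 male and 5 female rats was hybridised to Affymetrix RAE230_2 arrays, 1 organ of 1 rat per array. The deposited values are log2 signals of 31042 probesets on 256 arrays, which the authors computed with GCRMA (named without a version in the submitters' processing notes), after they had removed arrays that failed quality control. The arrays have no read depth, so their number limits precision. No value was renormalised here.

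Groups were taken from the tissue label, giving 4 testes arrays and 252 others. A linear model with 1 mean per organ was fitted over all arrays in limma 3.58.1 (R 4.3.3), leaving 225 residual degrees of freedom. The testes mean was compared with the mean of the other 30 organ means, and with each organ in turn. A probeset was above every other organ when the largest of 30 one-sided p-values passed, and below it in mirror image. Calls required an expression mean above 6.65 (the study's level, applied here to organ means over both sexes), a difference over 1 on the log2 scale and a Benjamini-Hochberg adjusted p under 0.05 over all probesets. Spread was pooled over organs. Samples are animals, and arrays of different organs share animals, which the fit does not model.

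Of the probesets, 20826 had 1 gene symbol, 436 had several and 9780 had none. The platform annotation was updated through RefSeq. Where a gene had several probesets, the one with the highest mean over all organ means stood for it. The text names the 15 genes furthest above and 10 furthest below every other organ, the 6 X-linked genes highest and lowest against the mean, the 6 of largest SD over the testes arrays, and members of the lists. Members and lists were chosen with earlier results of these data known. Promoters are RefSeq sequences on GRCr8. The scripts were tested on simulated data. Python 3.11.15 with pandas 2.3.3 and matplotlib 3.10.9 counted lists and drew figures.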

Additional observations from a re-analysis of the deposited data

Results flagged for a closer look

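In 15 of 204 named genes (7.35%), 1 testes array lay apart from the other 3, with a gap to the nearest array, as a fraction of the range of the 4 values, above the 95% critical value of Dixon's test (the fraction is given for each gene). Chance gives about 1 in 20. In 11 of the 15, array 3 was the one apart, and it was the lowest in 10. These were Odf1 (0.942), Hmgb4 (0.891), Zpbp (0.832), Mov10l1 (0.958), Syce3 (0.860), Cst8 (0.848), Scarb1 (0.962), Tspo (0.880), Myh11 (0.919) and Cox7b (0.873). They are genes of sperm, meiosis, the piRNA pathway, epididymal epithelium, steroids, muscle and mitochondria. The range over the 4 arrays was between 0.360 for Mov10l1 and 0.957 for Syce3 on the log2 scale. Array 3 was the highest for Aurkb (0.833), a mitotic kinase. In the remaining genes, array 2 was high for Dnai1 (0.966), array 4 was high for Ldhal6b (0.838) and Tbp (0.889), and array 1 was low for Rsph9 (0.919). Over all probesets, array 4 and not array 3 had the most values more than 1 log2 unit from the testes mean. These were 688, against 470, 487 and 471 on arrays 1, 2 and 3. A cause was not tested.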

How the results depend on the processing

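Counts moved most with the expression threshold and the fold required. Without the threshold, 7460 probesets were lower than the mean of the other organs, 939 below every organ and 7871 lower than in the brain. With a threshold of 8 the first 2 counts were 2481 and 294. A 4-fold requirement gave 2404 lower, 1025 above every organ and 112 below every organ. Leaving out each testes array in turn gave 1587 to 1609 above every organ, 495 to 533 below, 3881 to 3922 higher, 4139 to 4253 lower and 816 to 825 expressed in the testes alone. Centring arrays on their median moved the median difference over all probesets by 0.14 and gave 4207 higher and 3933 lower. Quantile normalization gave 4152 and 3881. With a random block on sex and replicate number (consensus correlation 0.0131), 3895 were higher, 4218 lower and 1594 above every organ, 1591 of them shared. Deviations of each testes array from the testes mean were set against the mean deviations of same-numbered male arrays from their organ means. Over probesets expressed in the testes, these deviations correlated at -0.0913 to 0.168, so the numbers were not taken to pair the animals. The methods' t-test gave 3573 higher, 3681 lower and 1519 above every organ, and male arrays alone gave 1600, of which 1546 were shared. Of 42 named genes, Wtap passed without array 1 (1.83), Zfp212 (1.86) and RT1-Db1 (2.00) passed without array 4, and Prss35 (2.75) lost its call without array 3. Changes chosen after seeing the data, such as leaving out uterus array 1 or epididymis array 5, are given with the results.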
